A study of Homo sapiens with 6 samples.

Results

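Broad accessible regions are stretches of at least 1500 bp, joined from the called peaks of 6 libraries of fixed GM12878 cells, in which every library had a peak. Overlapping or adjoining peaks of the 6 peak lists were merged, and autosomal merged regions of at least 1500 bp that overlapped a peak of each of the 6 libraries were kept. There were 308 of them among 56447 merged regions, which is 0.546%, and they held 3.39% of the length of the 19364 autosomal regions called in all 6 libraries. They were compared with the 11407 autosomal regions of 400 to 800 bp that were likewise called in all 6 libraries. Since peak width chose the members, their widths and the reads at their summits are given as descriptions.

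GM12878 is a human lymphoblastoid line, that is B cells kept in culture after transformation by a herpesvirus. ATAC-seq was done on cells fixed in 1% PFA, lysed with the detergent Igepal at 0.05%, with 30 min of transposition at 37 °C, EDTA at 40 mM to stop it, overnight crosslink reversal with proteinase K at 65 °C and 10 min at 80 °C, and by the labels all 6 libraries shared these steps. The 3 protocols, with 2 replicate libraries each, differed in how the crosslinks were reversed. The old buffer held SDS and the new buffer held none. In the unpurified protocol the new buffer was used and PCR followed with no DNA purification, which the study calls bulk Pi-ATAC or MI-ATAC. The paper's methods, however, describe the Igepal concentration, the EDTA stop and the 80 °C step for bulk Pi-ATAC and not for the SDS buffer. The labels do not say that the replicates came from separate cultures, so p-values measure the spread between these libraries, which may be technical, and all of them come from 1 cell line.

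In ATAC-seq the Tn5 transposase inserts adapters where DNA is not wrapped around stable nucleosomes, and a peak caller joins neighbouring positions with more insertions than the local background. Enhancers and insulator sites are usually short gaps in the nucleosome array, whereas promoters of widely expressed genes often lie in CpG islands, stretches of GC-rich DNA that escape methylation and keep their nucleosomes loose on either side of the start. In B cells the lineage genes, such as those of the antigen receptor and its transcription factors, are known to depend largely on distal enhancers.

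The following reference sequences show what lies under the strongest summit, the position of the most significant peak over the 6 libraries, in 250 bp windows of the plus strand of hg19, 5′ to 3′, with each CpG in capitals. The first pair are the widest members at a coding promoter, DIPK2A (chr3:143690391-143690640), which encodes a divergent protein kinase domain protein, and LPXN (chr11:58345580-58345829), which encodes leupaxin, a LIM-domain adaptor of blood cells. The next 3 are the widest members away from coding promoters, at the start of MIR17HG (chr13:91999707-91999956), the host transcript of the miR-17-92 cluster, beside an assembly gap on chromosome 6 (chr6:58778548-58778797) and near MIR3687 beside an assembly gap on chromosome 21 (chr21:9826763-9827012). The last is the comparison promoter with the highest summit, at KIFAP3 (chr1:170043678-170043927), which encodes a kinesin-associated protein.
DIPK2A: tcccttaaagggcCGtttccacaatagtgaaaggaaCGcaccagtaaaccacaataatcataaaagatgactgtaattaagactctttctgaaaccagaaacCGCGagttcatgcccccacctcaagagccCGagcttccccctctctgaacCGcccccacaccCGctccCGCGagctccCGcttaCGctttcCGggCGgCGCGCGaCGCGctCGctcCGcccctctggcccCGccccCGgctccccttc
LPXN: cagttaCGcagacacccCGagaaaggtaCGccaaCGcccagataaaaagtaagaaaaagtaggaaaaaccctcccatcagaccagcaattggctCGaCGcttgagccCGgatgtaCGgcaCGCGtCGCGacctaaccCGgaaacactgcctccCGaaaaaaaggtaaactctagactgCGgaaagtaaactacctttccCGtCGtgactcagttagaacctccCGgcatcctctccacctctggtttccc
MIR17HG: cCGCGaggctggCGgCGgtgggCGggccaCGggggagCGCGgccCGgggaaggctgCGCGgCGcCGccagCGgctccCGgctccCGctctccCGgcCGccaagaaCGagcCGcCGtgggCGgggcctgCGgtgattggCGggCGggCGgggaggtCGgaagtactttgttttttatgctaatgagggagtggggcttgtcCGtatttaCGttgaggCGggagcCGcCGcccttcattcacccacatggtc
chr6 gap side: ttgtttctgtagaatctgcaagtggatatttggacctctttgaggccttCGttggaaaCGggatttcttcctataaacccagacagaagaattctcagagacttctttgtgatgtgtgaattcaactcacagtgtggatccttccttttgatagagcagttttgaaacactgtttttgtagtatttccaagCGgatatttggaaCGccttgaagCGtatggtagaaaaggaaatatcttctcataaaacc
chr21 gap side: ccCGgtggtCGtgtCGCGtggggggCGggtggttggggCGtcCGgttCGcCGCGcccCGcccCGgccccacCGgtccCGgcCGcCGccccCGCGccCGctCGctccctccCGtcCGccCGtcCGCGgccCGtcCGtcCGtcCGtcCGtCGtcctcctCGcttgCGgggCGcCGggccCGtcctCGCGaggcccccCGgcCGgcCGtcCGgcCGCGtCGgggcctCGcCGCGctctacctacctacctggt
KIFAP3, 400 to 800 bp: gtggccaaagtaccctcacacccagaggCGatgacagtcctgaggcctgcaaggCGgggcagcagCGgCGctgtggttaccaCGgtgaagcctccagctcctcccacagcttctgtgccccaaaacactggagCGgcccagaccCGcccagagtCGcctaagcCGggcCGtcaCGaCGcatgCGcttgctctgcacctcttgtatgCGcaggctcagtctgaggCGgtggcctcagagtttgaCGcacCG
These windows held 22 CpGs at DIPK2A, 18 at LPXN, 32 at MIR17HG, 5 at the chromosome 6 site, 48 at the chromosome 21 site and 17 at KIFAP3. Their CpG observed/expected ratios, the CpG count over that expected from the C and G content, were 1.11, 1.08, 1.03, 0.526, 1.15 and 0.651, and their GC contents were 60.0%, 52.8%, 71.6%, 39.2%, 82.8% and 64.8%. The chromosome 6 site had the fewest CpGs, the lowest ratio and the lowest GC content of the windows shown. The same choice also gave windows at RAP2B and at the comparison region outside promoters with the highest summit (chr1:156186307-156186556), which are not printed. They held 11 and 35 CpGs, with ratios of 0.632 and 0.932 and GC contents of 52.8% and 77.6%. The ratio at the broad RAP2B promoter was thus below that at KIFAP3.

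The broad regions were mostly not much wider than the threshold. Their median width was 1603 bp, 241 were under 1750 bp, 52 lay between 1750 and 2000 bp, and 15 reached 2000 bp. The widest had 3093 bp. No autosomal region of at least 1500 bp was called in fewer than 6 libraries: all 308 were called in every one. Just inside the threshold were 3 regions of 1500 bp, at the promoters of ZSWIM6, a zinc finger protein gene, and IFRD1, a developmental regulator gene, and in an intron 6310 bp from the start of PRR7. Just outside it were regions of 1499 bp at the promoter of IL15, a cytokine gene, of 1498 bp in an intron of ASTN2 and of 1497 bp at the promoter of ZFR, a zinc finger RNA-binding protein gene.

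The merged width is the union over 6 lists, and few members were a single wide peak in each of them. In 178 regions (57.8%) no library had an own peak of at least 1500 bp, in 69 exactly 1 library had one, and in 12 (3.90%) all 6 did. In 74 regions every library called a single peak, in 16 no library did, and in 218 some did. In an average library, peaks covered a median of 78.6% of a member, with a range of 38.1% to 99.3%. A member was thus usually a wide patch whose parts and ends were called differently from library to library.

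The 12 members with an own wide peak in every library were looked up after their values were seen. Among them were the promoters of DIPK2A, LPXN, TSEN34 (a tRNA splicing endonuclease subunit), GOLIM4 (a Golgi membrane protein), GSK3B (a kinase of Wnt and insulin signalling), GALNT7 (a glycosyltransferase) and UBE2D3 (a ubiquitin-conjugating enzyme), the gap sides on chromosomes 6 and 21, and regions near the variant U1 snRNA gene RNVU1-18 on chromosome 1 and near AC010760.1 on chromosome 15. At GSK3B (chr3:119812869-119814743) the widest peak had 1684 and 1667 bp for the old buffer, 1780 and 1852 bp for the new buffer, and 1835 and 1853 bp in the unpurified libraries. At UBE2D3 (chr4:103747992-103749742) it had 1677 and 1617 bp, 1579 and 1657 bp, and 1598 and 1751 bp in the same order. The old buffer gave the narrowest peaks at GSK3B, while at UBE2D3 the protocols overlapped.

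Summit reads, the read pileup at the strongest summit solved from the deposited fold enrichment and p-value, were higher in broad than in 400 to 800 bp regions in every library, as is usual where width and height come from the same calls. The broad regions had medians of 53 and 47 in old-buffer replicates 1 and 2, of 59 and 49 in the new-buffer replicates, and of 60 and 56 in the unpurified replicates. In the comparison regions they were 27 and 23, 27 and 22, and 27 and 26. The lowest local background, which scales with depth, was 1.74 and 1.52, 1.58 and 1.51, and 1.76 and 1.86 reads in these libraries, and total reads per library are not in the lists. A member's highest library had a median of 1.44 times the reads of its lowest, and in 189 members (61.4%) this ratio was under 1.5. Over the 19364 regions called in all 6 libraries, which share libraries and depth, Spearman's rho of width with mean summit reads was 0.566 and Pearson's r was 0.522. Over the 308 members, whose range of widths the rule cuts short, the values were 0.0668 and 0.353.

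**Figure D1:**
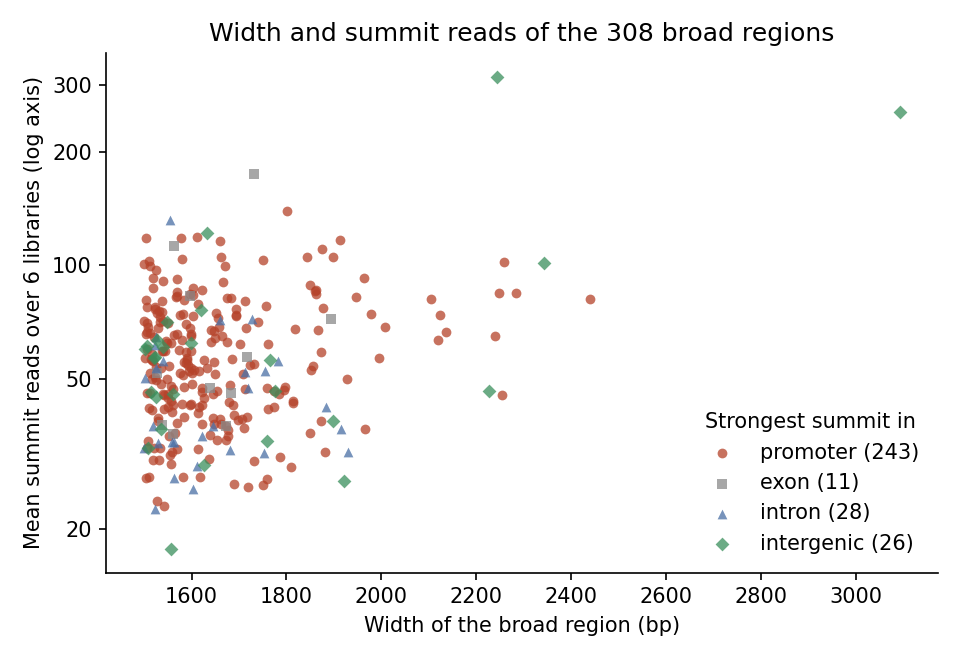
Each point is 1 of the 308 broad regions, with its width in bp on the x axis and its mean summit reads over the 6 libraries on a log y axis, coloured by where its strongest summit lies. Most points crowd below 1750 bp, and 2 intergenic regions beside assembly gaps stand apart at 255.0 and 316.5 reads.

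The tallest member was the chromosome 21 gap side (chr21:9825389-9827633, 2245 bp), with 320 and 303 summit reads for the old buffer, 323 and 320 for the new buffer and 315 and 318 in the unpurified libraries. It begins directly at an assembly gap, and its nearest coding start, of TPTE, lies 1163986 bp away. The widest member, the chromosome 6 gap side (chr6:58776421-58779513), had 258 and 243, 243 and 257, and 263 and 266 summit reads, and a single peak of 3023 to 3084 bp in each library. It lies 653 bp from an assembly gap and 1385561 bp from the nearest coding start, of PRIM2. At the chromosome 21 site both new-buffer libraries were above both unpurified libraries in reads not scaled for depth. The old buffer met the new buffer at 320 reads there and overlapped the unpurified libraries. At the chromosome 6 site the unpurified libraries were highest in these reads, which are not scaled for depth, and new-buffer replicate 2 was highest once each library was divided by its median over the regions called in all 6. In all, 10 members lay within 100 kb of an assembly gap of at least 1 kb, 3 of them at promoters, and the part that reads from sequence missing in the assembly have in their height was not tested. The lowest member, 1557 bp near a start of unconfirmed type on chromosome 10 (34011 bp from EBLN1), had 16 and 17, 16 and 18, and 20 and 19 reads.

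The broad regions were predominantly promoters. The strongest summit lay within 1000 bp of the start of a protein-coding transcript, which is called a promoter here, in 243 members, in an exon in 11, in an intron in 28 and between genes in 26. With each library's own strongest summit, the promoter share was 78.8% ± 0.380 (SD, n = 6 libraries) in broad regions and 26.8% ± 0.0345 in regions of 400 to 800 bp. In the order used above, the broad regions had 78.9%, 78.6%, 78.6%, 79.5%, 78.6% and 78.9%. The difference of 52.0 percentage points was seen in 6 of 6 libraries (exact two-sided sign-flip permutation test, p = 0.03125, adjusted p = 0.03125 over 5 tests, the smallest p that 6 libraries can give). The intron share was 9.15% ± 0.380 against 43.1% ± 0.137, and the intergenic share 8.12% ± 0.411 against 25.5% ± 0.0442, each lower in 6 of 6 libraries with the same exact p and adjusted p. The libraries see the same regions, so the test covers differences between libraries and not the choice of regions.

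The promoter share rose with width in steps over the whole set of regions called in all 6 libraries. It was 13.2% of 242 regions under 400 bp, 26.8% of the comparison regions, 55.2% of 4335 regions from 800 to 1000 bp, 66.8% of 2091 from 1000 to 1200 bp, 75.1% of 981 from 1200 to 1500 bp and 78.9% of the broad regions. The broad regions were thus the end of a gradient over these classes, with a small last step. The share did not keep rising among the widest members. With the 15 members of at least 2000 bp, the difference from comparison regions was 44.3 ± 3.46 percentage points (SD, n = 6 libraries). Over all members the difference was 52.0. The gap to the comparison regions was also present among regions of like height. With 30 to 50 mean summit reads, 75.9% of 112 broad regions and 32.2% of 3069 comparison regions were promoters, and with 50 to 80 reads the shares were 81.3% of 123 and 37.3% of 453.

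**Figure D2:**
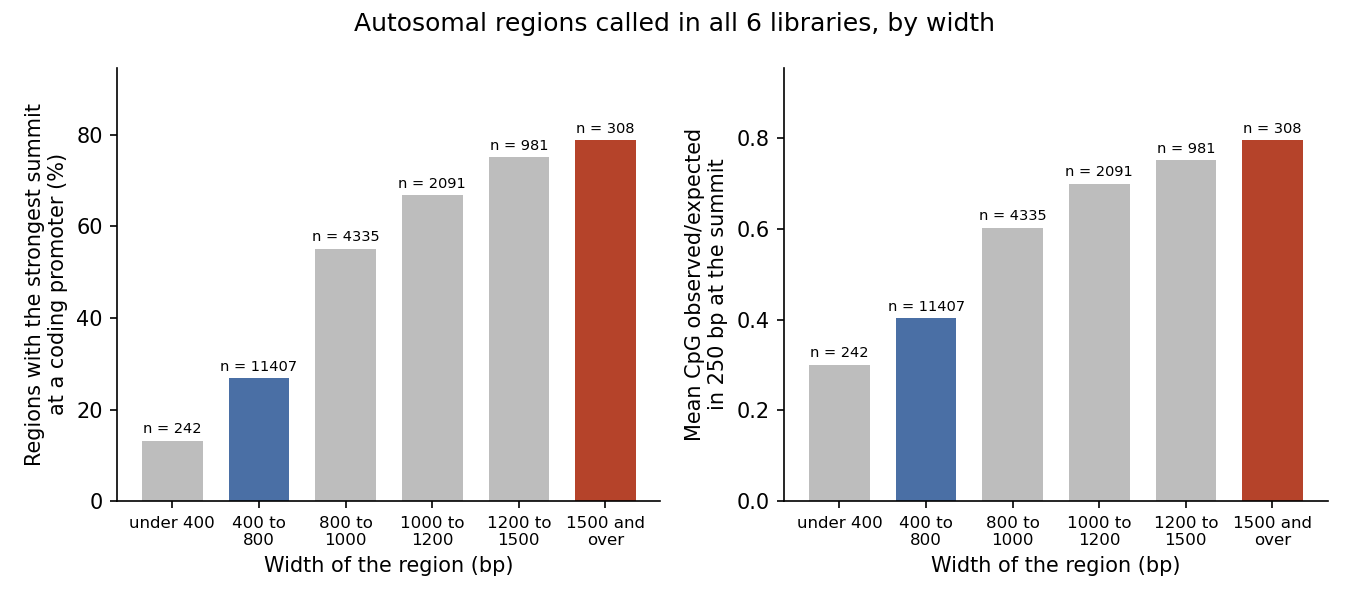
Bars give, for autosomal regions called in all 6 libraries and grouped by width in bp on the x axis, the share with the strongest summit at a coding promoter in percent (left) and the mean CpG observed/expected ratio in the 250 bp at the summit (right), with the number of regions above each bar. Both climb from the narrowest class to the broad regions in red, from 13.2% to 78.9% and from 0.301 to 0.797, and the comparison class is blue.

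CpG content followed the same order. The mean CpG observed/expected ratio at the summit was 0.793 ± 0.00656 (SD, n = 6 libraries) in broad regions and 0.403 ± 0.000598 in comparison regions, a difference of 0.390 found in 6 of 6 libraries (exact two-sided sign-flip permutation test, p = 0.03125, adjusted p = 0.03125). GC content was 65.0% ± 0.430 and 51.4% ± 0.0808, with the same direction in 6 of 6 libraries and the same exact p and adjusted p. At the strongest summit over all libraries, 250 of 308 members (81.2%) had a ratio of at least 0.6, against 29.2% of the comparison regions. Most of the contrast went with location, however. Among promoter summits alone the ratio was 0.874 ± 0.00874 in broad and 0.822 ± 0.00171 in comparison regions, a difference of 0.0517, while among summits outside promoters it was 0.490 ± 0.0135 and 0.249 ± 0.000836, a difference of 0.241. Both differences had the same sign in 6 of 6 libraries (exact sign-flip permutation test, unadjusted p = 0.03125 each), and these splits were chosen after the data were seen.

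**Figure D3:**
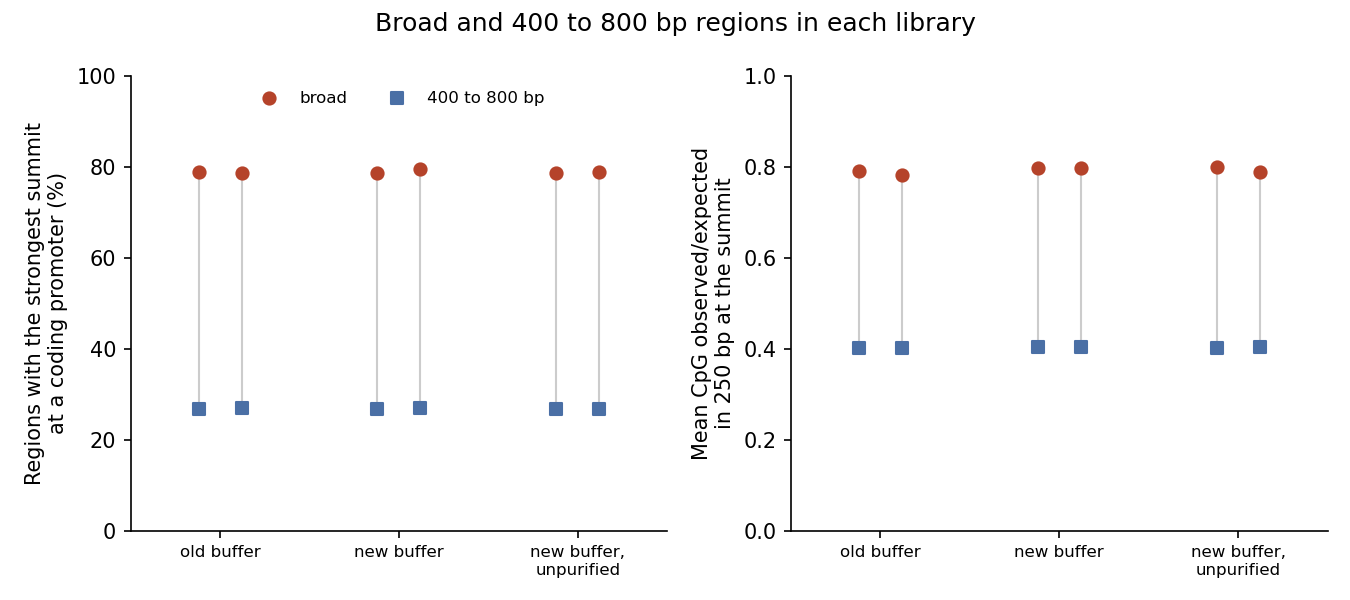
Each pair of points joined by a line is 1 library, with the broad regions as red circles and the 400 to 800 bp regions as blue squares, for the promoter share in percent (left) and the mean CpG observed/expected ratio at the summit (right). In all 6 libraries the broad regions lie near 78.8% and 0.793 and the comparison regions near 26.8% and 0.403.

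Of the 243 promoter members, 203 had the starts of 1 coding gene within 1000 bp of the strongest summit and 40 had those of 2 genes. Coding starts on both strands were present in 37 (15.2%) and in 11.1% of the 3059 comparison promoters, so that most broad promoters held no divergent coding transcripts. Starts of lncRNAs and of other noncoding transcripts were not counted here, so divergent starts of those kinds may be present. The median distance from the summit to the nearest coding start was 85 bp, against 67 bp in the comparison promoters. The LPXN region (chr11:58345033-58347316) was the widest that held starts of 2 coding genes.

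Most broad promoters reached farther into the gene than away from it, by a margin that depended on the width threshold. In the 206 promoter members with coding starts on 1 strand, the region extended a median of 660.5 bp upstream and 972 bp downstream of the start nearest to the summit, and 129 (62.6%) reached farther downstream. In 2718 comparison promoters of the same kind the medians were 343 bp upstream and 284 bp downstream, and 39.9% reached farther downstream. By length in peaks, 52.7% ± 1.25 (SD, n = 6 libraries) of the called length of a broad promoter lay downstream, against 42.8% ± 0.691, as a description with no test. With members of at least 2000 bp only, this share was 47.3% ± 2.29, so that the larger part then lay upstream. At 250 bp upstream of the start, 87.9% ± 2.93 of the broad promoters were inside a peak, and at 250 bp downstream 79.0% ± 7.87 were. At 750 bp the order was the opposite, with 29.7% ± 3.48 upstream and 47.7% ± 6.03 downstream, and at 1000 bp the values were 14% ± 1.12 and 28.1% ± 4.39. In the comparison promoters the values at 250 bp were 58.4% ± 4.29 upstream and 30.1% ± 4.12 downstream.

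**Figure D4:**
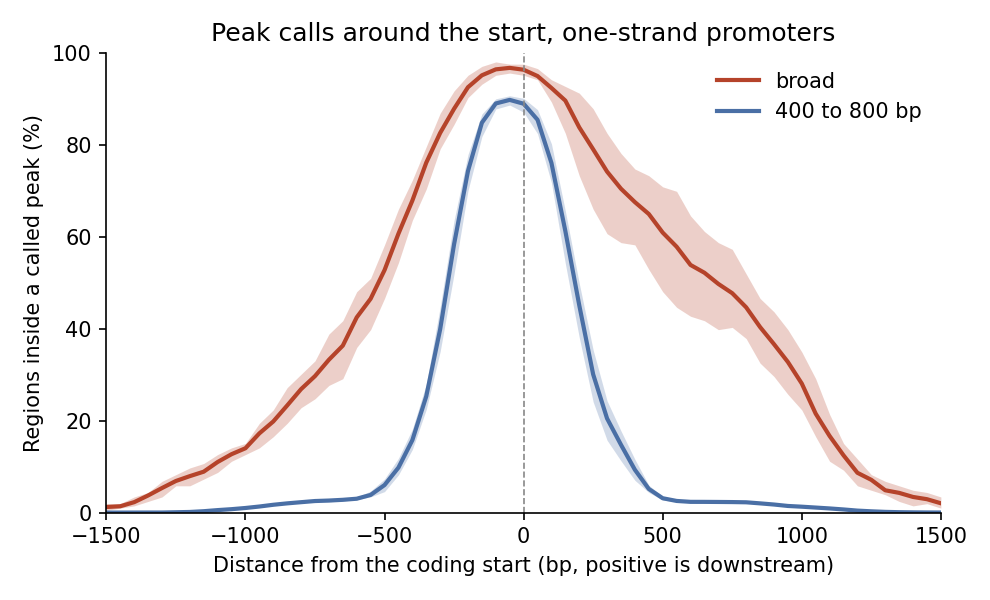
The x axis is the distance in bp from the coding start nearest to the summit, with positive values inside the gene. The y axis is the share of promoter regions in percent that lie inside a called peak at that distance. Shown are 206 broad (red) and 2718 comparison (blue) regions with coding starts on 1 strand, noncoding starts not being counted. Lines are means over 6 libraries and bands run from the lowest to the highest library. The red curve has a shoulder on the downstream side, at 47.7% at 750 bp, and the blue curve leans upstream.

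Of the 10 widest members, 6 were coding promoters. DIPK2A (chr3:143689773-143692213, 2441 bp) had summit reads of 76 and 72 for the old buffer, 94 and 76 for the new buffer, and 85 and 85 in the unpurified libraries, so that, with no scaling for depth, the new buffer and the unpurified protocol were at or above the old buffer's higher library. LPXN (2284 bp) had 83 and 76, 95 and 81, and 87 and 85. RAP2B (chr3:152878197-152880454, 2258 bp), a small GTPase gene, had 103 and 87, 106 and 105, and 111 and 99, and its strongest summit lay 878 bp from the coding start and 71 bp from that of a lncRNA. The others were SLCO5A1 (2255 bp), an organic anion transporter gene, FBXL17 (2248 bp), a gene of an F-box subunit of ubiquitin ligases, and PPM1A (2240 bp), a protein phosphatase gene. Their mean summit reads were 45.2, 84.3 and 64.8. SLCO5A1 had no library with an own peak of 1500 bp, so its width came from merging alone.

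The remaining 4 of the 10 widest were not at coding promoters. Besides the gap sides on chromosomes 6 and 21, they were the MIR17HG region (chr13:91999208-92001550, 2343 bp), whose summit lay 108 bp from the start of this lncRNA, and a region of 2228 bp on chromosome 10 (chr10:65388449-65390676), 106 bp from a lncRNA start and 109165 bp from REEP3. The MIR17HG region had 101 and 95 summit reads for the old buffer, 109 and 101 for the new buffer, and 107 and 96 in the unpurified libraries, and the protocols overlapped or met. The fifth widest outside promoters was an intronic region of AUTS2 (chr7:69203353-69205281, 1929 bp), a gene of neuronal development, with a mean of 32.0 summit reads and a CpG ratio of 0.0902. Thus wide regions with the CpG density of a promoter and a wide region nearly free of CpG stood beside each other in this group.

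Of all 65 members whose summit was outside coding promoters, 25 lay within 1 kb of a start of another kind. Of these, 18 were lncRNA starts and 2 were starts of other transcripts of coding genes. The other 40 had no annotated start within 1 kb, 21 of them in introns, 17 between genes and 2 in exons. The location is that of the summit, and as whole regions 7 of the 65 overlapped the 1 kb around a coding start. In 46 of the 65 the nearest coding start was over 10 kb away and in 18 over 100 kb. Their median CpG ratio was 0.413, and 24 of them (36.9%) reached 0.6, against 226 (93.0%) of the promoter members. Counting starts of every gene type, 268 of 308 members (87.0%) were at a start, against 33.8% of the comparison regions.

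Motifs were searched on either strand in the 250 bp at the strongest summit, and shares are given for the 308 broad, the 11407 comparison and all 19364 regions called in all 6 libraries, as descriptions. The GC box GGGCGG, bound by SP factors, was in 66.6%, 25.7% and 36.3%. The CCAAT box CCAATCA of NF-Y was in 9.42%, 5.65% and 6.80%, and the E-box CACGTG in 7.14%, 5.27% and 6.19%. The ETS motif CCGGAAG was in 11.7%, 7.15% and 9.13%, but among promoters alone in 13.6% of the broad and 20.8% of the comparison regions. Among promoters alone the GC box was in 75.3% of the broad and 72.5% of the comparison regions, and outside promoters in 33.8% and 8.56%. The RUNX motif TGTGGTT was in 5.84%, 13.9% and 11.6%, and the AP-1 motif TGANTCA in 7.47%, 19.5% and 15.8%. These lower shares in the broad regions went in part with location. Among promoters alone the RUNX letters were in 2.47% of the broad and 3.40% of the comparison regions and the AP-1 letters in 4.94% and 3.79%. Outside promoters the RUNX letters were in 18.5% and 17.8% and the AP-1 letters in 16.9% and 25.3%. The other motifs searched, those of 10 letters or more given by name, were PU.1 (GAGGAAGT, 1.30%, 3.80% and 3.33%), the octamer (ATTTGCAT, 1.62%, 2.94% and 2.49%), the interferon element (2.60%, 8.50% and 7.05%), NF-kB (0.649%, 1.70% and 1.56%), the cAMP element (TGACGTCA, 2.27%, 1.17% and 1.69%), NRF1 (1.30%, 0.789% and 1.29%), YY1 (0.974%, 0.421% and 0.630%) and CTCF (0%, 0.351% and 0.248%). The CCAAT letters were in 11.5% and 10.4% among promoters and in 1.54% and 3.92% outside them. Among promoters alone, the order was turned for the E-box (7.41% of the broad and 9.19% of the comparison regions), the cAMP element (2.47% and 3.24%), NRF1 (1.23% and 2.42%) and YY1 (0.823% and 1.57%). The NF-kB letters were more frequent in broad than in comparison regions among promoters (0.823% and 0.327%) and the octamer outside them (4.62% and 3.41%), on 2 and 3 broad regions. The ETS and PU.1 letters share GGAAG, and a match is not a site. Of the windows shown, DIPK2A and KIFAP3 held the RUNX and GC box letters, LPXN the AP-1 letters, the chromosome 6 site the interferon element, MIR17HG the GC box and CCAAT letters and the chromosome 21 site the GC box.

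By gene, 283 of 18886 autosomal coding genes (1.50%) had a start within 1000 bp of the summit of a broad region, 3342 (17.7%) of a comparison region and 8601 (45.5%) of any region called in all 6 libraries. The lists of B-cell genes had few or no members there. Of 27 B-cell transcription factors 0 were at a broad region, while 16 were at a region of 400 to 800 bp and 19 at any region called in all 6. Of 29 genes of the B-cell surface and receptor signalling 0 were at a broad region and 3 at a comparison region, and of 26 antigen presentation genes 0 and 8. Of 23 activation and adhesion genes 0 and 4 were. Of 28 NF-kB genes, 1 was at a broad region, NFKBIA, whose product holds NF-kB in the cytoplasm. With lists of this size and a background of 1.50%, a count of 0 or 1 is close to that of genes at large. Nothing is read from these counts. The counts hold for starts near the summit, and broad regions also lay in an intron of MEF2C (chr5:87970098-87971980) and 7340 bp from the start of BATF, both among the 27 factors and named after their values were seen.

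The lists of histone, chromatin, stress and ribosomal protein genes had between 1 and 6 members at broad regions. As shares these were above the 1.50% of genes at large, but the counts are small and no test was run. Nothing is therefore read from the difference. More of their genes were also at some region called in all 6 than the 45.5% of genes at large. That share was 57.4% for the histones, 77.1% for the chromatin regulators, 82.5% for the immediate-early and stress genes and 87.2% for the ribosomal proteins. Of 47 replication-dependent histone genes 6 (12.8%) were at broad regions, against 10 at comparison regions. H1-2 (chr6:26055120-26056929) and H4C1 (chr6:26020550-26022238) lay in separate regions, 32881 bp apart, and the H4C1 region held starts of 2 coding genes. H2AC6 and H2BC4 shared a region of 1639 bp and H2AC11 and H2BC11 a region of 1599 bp. These genes encode the linker and core histones of replicating cells, and their mean summit reads were 29.2, 26.3, 35.5 and 42.8 in this order, below the median of 54.3 of the broad regions. Of 48 chromatin regulators 3 (6.25%) were at broad regions, CHD1 (1713 bp), a remodeller of active genes, EZH2 (1649 bp), the Polycomb methyltransferase, and HDAC2 (1545 bp), a deacetylase. Of 40 immediate-early and stress genes 2 (5.00%) were, EGR1 (1813 bp), a serum-induced zinc finger factor, and ATF4 (1511 bp), the effector of the integrated stress response. Of 39 ribosomal protein genes 1 (2.56%) was, RPL7 (1731 bp).

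The list members can be followed library by library. At NFKBIA (chr14:35872841-35874345, 1505 bp) there were 60 and 50 summit reads for the old buffer, 68 and 60 for the new buffer, and 63 and 58 in the unpurified libraries, with a single peak in each library. At CHD1 (chr5:98263907-98265619) there were 75 and 74, 80 and 70, and 96 and 86, and at EZH2 (chr7:148580617-148582265) 72 and 57, 76 and 47, and 68 and 65. At EGR1 (chr5:137799735-137801547) there were 38 and 35, 50 and 39, and 45 and 52. In these reads, not scaled for depth, both unpurified libraries were above both old-buffer libraries at EGR1 and CHD1 and not at the other two, and at EZH2 all protocols overlapped.

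For markers of other lineages the counts were again near the background of 1.50%. Of 18 T-cell, 19 myeloid and erythroid, and 20 epithelial, neural and muscle genes, 0 each were at a broad region, although one lay in an intron of the T-cell factor gene GATA3 (chr10:8102089-8103650), 1893 bp from its start. As a check of the label, peaks within 1000 bp of a coding start were called in all 6 libraries for MS4A1, EBF1 and CD74 among 8 B-cell markers, and in 4 for CD79A. They were called in none for 5 of 7 T-cell markers, CD3D, CD3E, CD3G, CD2 and LCK, but in all 6 for CD8A and BCL11B. None of 4 erythroid and 4 epithelial markers had a peak in any library, and of 5 myeloid markers CD14 had one in 4 libraries. Peaks at starts alone thus mark the B-cell line only in part.

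Broad regions were spread unevenly over the 22 autosomes. Per 1000 coding genes there were 16.3 in all, most on chromosome 4 (34 regions, 45.0), chromosome 13 (14 regions, 43.9) and chromosome 6 (29 regions, 28.2), and fewest on chromosome 22 (1 region, 2.29). Over the 22 chromosomes, which share all libraries, Spearman's rho of this density with chromosome GC content was -0.944, and that of all regions called in all 6 libraries was -0.928. As a share of the regions called in all 6, they ranged from 0.536% on chromosome 20 to 2.64% on chromosome 4. The closest members lay 10738 bp apart on chromosome 12. One was at the promoter of TMPO, a nuclear envelope protein gene, and the other had its summit 79 bp from the start of the lncRNA LINC02453.

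The study varied the reverse crosslinking to let the PCR follow directly. Inside the broad regions, the length in called peaks was 387 and 353 kb for the old buffer, 423 and 383 kb for the new buffer, and 429 and 406 kb in the unpurified libraries. The unpurified libraries lay above the old-buffer libraries, and the other pairs of protocols overlapped. Since peak width chose the members, these values are descriptions with no test. The mean difference from the old buffer was 32.5 kb for the new buffer, with 10.4 to 48.0 kb when each library was left out in turn, and 47.0 kb for the unpurified libraries, with 26.8 to 57.0 kb. Between unpurified and new-buffer libraries it was 14.4 kb, and without new-buffer replicate 2 it was -4.62 kb.

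Members with an own peak of at least 1500 bp numbered 44 and 22 for the old buffer, 70 and 33 for the new buffer, and 70 and 48 in the unpurified libraries. The mean differences were 18.5 members for new minus old buffer, 26.0 for unpurified minus old buffer and 7.5 for unpurified minus new buffer, again with no test. With each library left out in turn they ran from 0 to 37, from 15 to 37 and from -11.0 to 26.0, and were 0 for new minus old buffer without new-buffer replicate 1 and -11.0 for unpurified minus new buffer without new-buffer replicate 2. The new-buffer replicates, with 70 and 33 members, lay farther apart than the protocol means did, and they overlapped each of the other protocols. Old-buffer and unpurified counts did not overlap, with 44 as the highest of the former and 48 as the lowest of the latter. Total length of all peaks was 16.9 and 15 Mb, 18.2 and 14.2 Mb, and 17.4 and 16.3 Mb in the same libraries, and its part in these counts was not tested.

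Relative to each library's median over the 19364 regions called in all 6, summit reads are given for each protocol as a description, since members enter through the libraries in which their peaks are wide. The rule that chose the broad regions gave 272 and 290 of them without old-buffer replicates 1 and 2 in turn. It gave 245 and 270 without those of the new buffer, and 233 and 254 without those of the unpurified protocol. In relative summit reads, the lower new-buffer value exceeded the higher old-buffer value in 127 of 308 members (41.2%). The same held in 21.6% of all 19364 regions. The opposite order was found in 12 members (3.90%), against 15.8% of all regions. In the same way the unpurified values exceeded those of the old buffer in 124 members (40.3%), against 22.6%, and the opposite held in 21 (6.82%), against 14.7%. These comparisons share the old-buffer libraries. Between the unpurified and the new-buffer libraries the counts were near the background, with the unpurified libraries higher in 39 members (12.7%, against 16.6%) and lower in 54 (17.5%, against 14.9%). The median log2 ratio over the members was 0.15 for new over old buffer, 0.13 for unpurified over old and -0.01 for unpurified over new, beside 0.03, 0.04 and 0.01 over all regions. No test was run on these shares, and because of the choice of members nothing is read from their distance to the background.

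By location, the shares above the old buffer were higher at promoters than elsewhere in both width classes and among all regions called in all 6. Both new-buffer libraries were above both old-buffer libraries in 45.3% of the 243 broad promoters and 26.2% of the other 65 broad regions, and in 25.6% of the comparison promoters and 13.1% of the other comparison regions, beside 31.4% of all promoters and 14.9% of all other regions called in all 6. For the unpurified libraries the shares were 42.8%, 30.8%, 28.7% and 13.7%, beside 33.6% and 15.1%. The opposite order, old above new buffer, was less frequent at promoters, with 2.47% and 9.23% of the broad and 10.2% and 23.2% of the comparison regions. Beside these stood 7.71% of all promoters and 21.3% of all other regions called in all 6. For unpurified above new buffer, promoters and other regions were near each other, with 12.8% and 12.3% of the broad and 17.1% of either kind of comparison regions. Among all regions called in all 6 these shares were 16.9% and 16.5%.

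**Figure D5:**
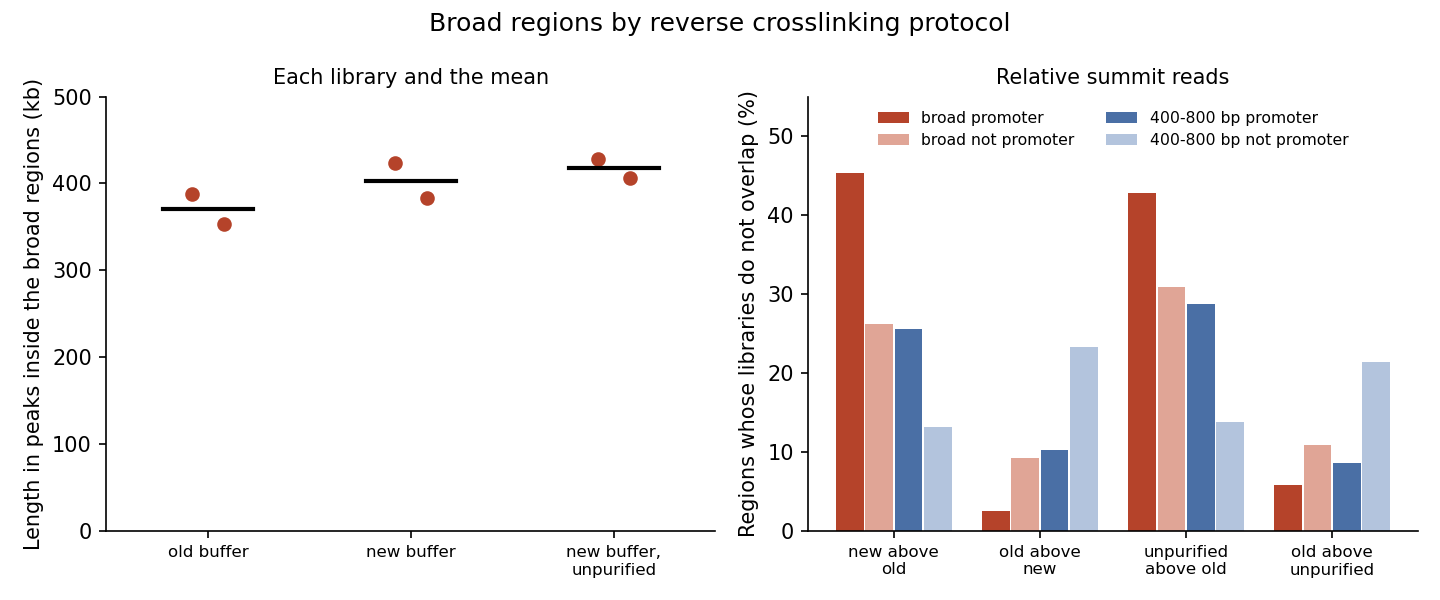
On the left, each point is the length of called peaks inside the broad regions in 1 library in kb, with the mean of each protocol as a line. On the right, bars give the share of regions in percent in which both libraries of a protocol lay above both of another in relative summit reads, for broad and 400 to 800 bp regions at and away from coding promoters. For broad promoters the bar reaches 45.3% for new above old buffer and 42.8% for unpurified above old buffer, and the reverse bars reach 2.47% and 5.76%. Over all promoters called in all 6, which are not drawn, the same shares were 31.4%, 33.6%, 7.71% and 6.81%.

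The members with the largest gaps between protocols illustrate the range. At ZZZ3 (chr1:78148040-78149545), a gene of a histone acetyltransferase complex, relative summit reads were 1.94 and 1.81 for the old buffer, 2.84 and 2.96 for the new buffer, and 2.35 and 2.50 in the unpurified libraries. Every SDS-free library was above the old-buffer libraries there. At MCM4, a subunit of the replicative helicase, they were 1.55 and 1.48, 1.84 and 2.35, and 2.71 and 2.20. SH3GLB1 (chr1:87169595-87171197), the endophilin-B1 gene, had 2.71 and 2.19, 2.84 and 2.77, and 3.29 and 3.17, with the unpurified libraries on top. In the other direction, an intronic region of EPS8 (chr12:15884810-15886368), an actin regulator gene, had 1.26 and 1.22, 1.00 and 0.885, and 1.29 and 1.27. ZDHHC2, a palmitoyltransferase gene, had 1.90 and 1.81, 1.87 and 1.92, and 1.45 and 1.50, and TAPT1 (chr4:16227550-16229172) 1.35 and 1.70, 2.1 and 1.81, and 1.32 and 1.20. These were chosen for their gaps and are given as descriptions.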

How the data were processed

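ATAC-seq peaks of 6 libraries of fixed GM12878 cells were used, 2 replicates for each of 3 reverse crosslinking protocols, grouped by the sample labels. The authors mapped reads to hg19 with Bowtie2 2.1.0, removed duplicates with Picard 1.79 and called narrow peaks with MACS2, whose version is not given in the sources used here. Each of the deposited lists holds per peak a score (10 times the −log10 q, without decimals), the ratio of summit to background (fold enrichment), and −log10 values of p and of q. The methods mention merging the reads of a condition, but there was 1 list per library.

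Summit reads and local background were solved from fold enrichment and Poisson p, within 0.001 in −log10 p for 100% of peaks. Depth is therefore known only relative to the other libraries, and summit reads, after duplicate removal, set the precision. Peaks were merged and located with Python 3.11.15, NumPy 2.4.6, SciPy 1.17.1 and pandas 2.3.3. All peak ends lay within the GRCh37 chromosomes, the build of hg19, and 78577 coding starts came from GENCODE version 44 lifted to it. The strongest summit is that with the highest −log10 q. Broad and comparison regions were compared within libraries (exact sign-flip test), with Benjamini-Hochberg adjustment. Exact permutation tests of the protocols had been planned, but their p-values are not given because peak width also chose the members. Merging was checked against bedtools 2.31.1 and the functions were tested on simulated data.

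The members, gene lists, motifs and tests were chosen with earlier results of these data known. Named members followed a rule: the 10 widest, the 5 widest outside promoters, list members, those beside the threshold, the highest and lowest, the members with the largest gaps between protocols, the 3 chromosomes with the most per gene and the widest with the most genes. Members with own wide peaks in all 6 libraries and a few chromosomes were named after their values were seen, and 1 such member and 1 marker gene are not reported here. Alternatives were −log10 q of at least 5, other widths, merging distances, promoter distances and windows, equal peak numbers, each library left out and a replicate block. Published blacklists were not used here. The paper's methods for bulk libraries describe filtering out peaks in nuclear mitochondrial sequences and in the ENCODE blacklist. Whether the peak lists used here had passed that filter was not checked.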

Additional observations from a re-analysis of the deposited data

Results flagged for a closer look

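Chromosome X lies outside the comparisons above, and it held 9 regions of at least 1500 bp that were called in all 6 libraries. The widest had 2436 bp, 1994 bp from a start of EOLA2, with a mean of 68.2 summit reads. Others lay at the promoters of HCFC1 (1904 bp), a regulator of the cell cycle, DDX3X (1881 bp), an RNA helicase gene, and AMER1 (1637 bp), a Wnt regulator gene, with means of 60.2, 46.2 and 75.3 summit reads. Each protocol had 2 libraries, too few to look for an outlying library within a protocol.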

How the results depend on the processing

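Of 138 values recomputed under the planned and added alternatives, 115 kept their direction and, where tested, their side of the threshold, or moved by less than the spread, and 1 was 0. The others were 12 that missed the threshold, 5 that moved further and 5 that changed sign. The number of broad regions was 1289 at a width of at least 1200 bp and 15 at 2000 bp, and between 233 and 290 when each library was left out in turn. With 1 library left out, the promoter share difference was 50.7 to 53.2 percentage points and the CpG difference 0.382 to 0.397, but 5 libraries cannot give an exact p under 0.0625, so these 12 values missed the threshold by construction. With only the stronger 400 to 800 bp regions the promoter difference was 42.0. The downstream share was 51.1% at 1200 bp, 47.3% at 2000 bp and 54.4% with starts within 500 bp. The protocol differences moved with single libraries, and the one between unpurified and new buffer changed sign. With 1 library left out, new minus old buffer ran from 10.4 to 48.0 kb in peaks and from 0 to 37 members with an own wide peak, and was 0 without new-buffer replicate 1. Unpurified minus old buffer ran from 26.8 to 57.0 kb and from 15 to 37 members. Unpurified minus new buffer ran from -4.62 to 26.5 kb in peaks and from -11.0 to 26.0 members with an own wide peak, and the latter was -0.5 at 2000 bp; the cause was not tested. Without regions within 100 kb of an assembly gap, chosen after the data were seen, 298 members remained and the promoter difference was 53.6.

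Region by region, replicate deviations were not correlated between protocols (-0.00337, -0.00269 and 0.0129 over 19364 regions). In library totals, however, replicate 1 was above replicate 2 in every protocol. Length in peaks inside the broad regions was 387 and 353, 423 and 383, and 429 and 406 kb. Members with an own wide peak numbered 44 and 22, 70 and 33, and 70 and 48. Matched by replicate number, this length was lowest for the old buffer and highest in the unpurified libraries. The labels do not say whether replicate numbers mark a shared batch. With the replicate block, the differences in length were the same 32.5, 47.0 and 14.4 kb, and those in members with an own wide peak 18.5, 26.0 and 7.5, since a block leaves a difference of means unchanged.

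With 2 libraries per protocol, no exact test of a protocol difference can reach p under 0.333. Depth is known only between the libraries, the lists hold no reads outside peaks, and a region called in every library says nothing of sites that only deeper sequencing would join.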
